A study of Mus musculus with 6 samples.

Results

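The pentose phosphate pathway and its companion NADPH-producing enzymes were examined in macrophages in which PGAM5, a mitochondrial protein phosphatase, had been knocked down. The 10 genes were taken by name for their place in the pathway, by a rule that uses no measured value, although earlier results of these data were known when they were chosen: the oxidative branch (G6pdx, Pgls, Pgd), the non-oxidative branch (Rpia, Rpe, Tkt, Taldo1), the sedoheptulose kinase Shpk, and the cytosolic enzymes Me1 and Idh1. All 10 were found by their symbols among the 54532 genes of each deposited table. RNA-seq was carried out on 6 libraries of immortalized mouse bone marrow-derived macrophages (iBMDMs), 3 expressing a control shRNA (shControl) and 3 expressing an shRNA against Pgam5 (shPGAM5), here called control and PGAM5 KD libraries. iBMDMs are bone marrow cells that grow as a line because retroviruses brought in v-raf and v-myc, and the shRNAs were delivered by lentiviruses. All cells were grown in high-glucose medium with pyruvate and glutamine and were treated with LPS at 100 ng/ml for 4 hours. No untreated library is among the samples, so the values compare both groups after LPS and measure no induction. Each group has its own shRNA, and a difference between the shRNAs or the infected lines cannot be told apart from a difference in PGAM5. The number of shRNA sequences, and whether the replicates were separate cultures, are not given in the sources used here, so p-values measure the spread between these libraries, which may be technical.

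As background, the oxidative branch takes glucose 6-phosphate and yields NADPH, the reducing agent that macrophages use for the respiratory burst, nitric oxide synthesis, glutathione recycling and lipid synthesis. The non-oxidative branch rearranges sugar phosphates reversibly and connects ribose 5-phosphate, the sugar of nucleotides, with glycolysis. Malic enzyme 1 and isocitrate dehydrogenase 1 make NADPH in the cytosol from malate and isocitrate, so they supply the same cofactor without passing through the pathway. LPS-activated macrophages are known for a high flux through the oxidative branch and for low Shpk.

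The enzymes did not move as a block. In PGAM5 KD libraries, the transcripts of both NADPH-forming steps of the oxidative branch were lower: G6pdx fell by 9.89% and Pgd fell by 10.2%, a log2 fold change of -0.15 for each. The transcripts of the cytosolic enzymes outside the pathway were higher, by 43.5% for Me1 (log2 fold change 0.51) and 11.7% for Idh1 (0.16). In the non-oxidative branch, Rpe was 13.7% higher (0.17) at the edge of the threshold, and Rpia, Tkt and Taldo1 did not pass it. Of the 9 genes tested, 3 were higher and 2 lower at an adjusted p-value under 0.05 in limma, where 16.8% of the 10540 genes tested were higher, 14.9% lower and 31.7% one or the other. By the thresholds of the study's methods, which also ask for an absolute log2 fold change above 1, 0 of the 9 were differentially expressed, against 1.32% of all genes tested. Scaled to TPM or quantile normalized, only 1 was higher (Me1) and the same 2 were lower. Of all 10540 genes, 1088 were higher and 2282 lower under TPM, and 1436 higher and 1721 lower after quantile normalization. At an unadjusted p under 0.05 the count was 5, as after adjustment. The share of all genes at that unadjusted threshold was not computed, so this count is no result about the enzymes. Voom on recovered fragments called 4 at the adjusted threshold and 0 at the larger fold. Of all 10535 genes in the voom fit, 1944 were higher and 1942 lower, and 279 passed both thresholds. The median log2 fold change of the 9 genes was 0.06 (-0.02 under TPM), and that of all genes tested was 0.01.

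FPKM, a fragment count divided by exon length and library depth, was the deposited unit, and log2(FPKM + 1) was tested, a scale that understates changes of low genes. Library depth, recovered from the values, ran from 18165599 to 20178812 fragments in control and from 18163464 to 24388917 in PGAM5 KD libraries. Summed over all genes, FPKM ranged from 304393 to 304889 in the control group and from 317936 to 324298 in the PGAM5 KD group, so scaling each library to TPM lowers every PGAM5 KD value relative to control. Under TPM 1088 genes were higher and 2282 lower, where FPKM gave 1771 and 1575, and the median of all genes tested moved from 0.01 to -0.06. Pgam5 itself had 17.1, 12.97 and 13.4 FPKM in control and 4.33, 5.75 and 4.53 FPKM in PGAM5 KD libraries (-1.40 on the log2 scale, limma adjusted p = 0.000358). Of 8 macrophage markers 7 were tested, 4 higher and 3 lower, with a median log2 fold change of 0.56. Their summed FPKM, in which abundant genes weigh most, went the other way. It ranged from 2802 to 2894 in control and from 2526 to 2544 in PGAM5 KD libraries, and Mertk was listed at 0 in every library. The part of these marker changes in the values of the enzymes was not tested. All 9 neutrophil, 6 fibroblast and 6 lymphocyte markers were below 1 FPKM in every library, 6, 4 and 4 of them at 0 throughout. In bulk RNA, fewer cells with a transcript and less of it per cell cannot be told apart.

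The start regions of the 4 genes for NADPH-forming enzymes are shown because NRF2, a regulator of antioxidant genes that is known to act on several of these enzymes, binds the antioxidant response element with the core TGACNNNGC, and because PGAM5 is known to bind KEAP1, the inhibitor of NRF2. RefSeq promoter windows of 300 bases on GRCm38.p6 (250 before and 50 after a start site) were available for all 10 genes, 13 windows in all. The stretches below run 5′ to 3′ on the strand of the gene, from 150 bases before the first listed start site to 10 bases after it, all on the minus strand of the genome, with the core in capitals where it occurs on either strand.
G6pdx, chrX:74428871-74429030: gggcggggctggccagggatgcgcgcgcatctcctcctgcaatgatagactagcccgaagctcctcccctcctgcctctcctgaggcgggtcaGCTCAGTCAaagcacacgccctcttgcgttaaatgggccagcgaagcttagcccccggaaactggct
Pgd, chr4:149166696-149166855: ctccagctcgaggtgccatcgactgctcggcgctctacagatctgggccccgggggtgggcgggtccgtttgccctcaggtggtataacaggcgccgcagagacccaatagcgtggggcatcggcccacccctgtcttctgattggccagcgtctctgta
Me1, chr9:86695905-86696064: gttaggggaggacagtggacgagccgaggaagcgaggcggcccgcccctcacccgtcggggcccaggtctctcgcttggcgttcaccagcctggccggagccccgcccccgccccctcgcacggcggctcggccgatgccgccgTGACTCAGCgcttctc
Idh1, chr1:65186470-65186629: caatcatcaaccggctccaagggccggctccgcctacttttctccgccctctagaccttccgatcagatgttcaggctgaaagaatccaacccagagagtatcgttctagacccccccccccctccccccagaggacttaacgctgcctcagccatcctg
In G6pdx the core lay on the opposite strand of the gene, reading TGACTGAGC there, at bases -57 to -49 from the start site. In Me1 it read TGACTCAGC and spanned the start site, from base -6 to base 3, and its first bases are also the AP-1 site TGACTCA. Neither stretch of Pgd or Idh1 holds it, although a second, internal start site of Pgd had TGACATTGC at bases 4 to 12. No other member's window held the core, and 12.4% of the 32851 promoter windows did. The core is thus in the first window of a gene that was lower (G6pdx) and of a gene that was higher (Me1). The E box CACGTG, found in 7.15% of all windows, was in none of the 13, and ACGTG, the hypoxia response core that an E box also contains, was in the windows of G6pdx and of the second start site of Me1, against 19.6% of all windows. A match describes the letters only and is not evidence of binding.

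G6pdx (ENSMUSG00000031400; GRCm38 chromosome X, 74409483 to 74429194, minus strand) encodes glucose-6-phosphate dehydrogenase, the first and rate-limiting step of the oxidative branch. It had 103.0, 101.6 and 104.9 FPKM in control replicates 1 to 3 and 90.6, 92.8 and 95.4 FPKM in PGAM5 KD replicates 1 to 3. All PGAM5 KD libraries were below all control libraries, by more than the spread of either group. The mean fell from 103.2 ± 1.67 to 93.0 ± 2.41 FPKM (SD, n = 3), which is -0.15 on the log2 scale (SE 0.03, limma adjusted p = 0.0137). Pgd (ENSMUSG00000028961; chromosome 4, 149149991 to 149166771, minus strand) encodes 6-phosphogluconate dehydrogenase, which forms the second NADPH and ribulose 5-phosphate. Its control libraries had 84.99, 83.3 and 87.0 FPKM and its PGAM5 KD libraries 75.1, 77.7 and 76.5 FPKM, again without overlap. The log2 fold change of Pgd was -0.15 (SE 0.03, limma adjusted p = 0.0120). Both genes were past the threshold in all 16 alternative fits, with log2 fold changes from -0.23 to -0.13 for G6pdx and from -0.23 to -0.14 for Pgd, the larger falls coming with TPM. Pgls (ENSMUSG00000031807; chromosome 8, 71592176 to 71601092) encodes the lactonase that acts between them. It had 37.5, 35.6 and 38.8 FPKM in control and 36.8, 40.9 and 38.7 FPKM in PGAM5 KD libraries, which overlapped. Its log2 fold change of 0.06 had a 95% interval from -0.07 to 0.18, which does not reach the fall seen for G6pdx and Pgd (limma adjusted p = 0.46). The exons of Pgls share 776 bases with Fam129c on the same strand, and Fam129c had 124, 143 and 139 fragments in control and 66, 101 and 68 in PGAM5 KD libraries, beside 2568 to 3554 on Pgls. Fragments summed over Pgls and Fam129c had a log2 fold change of 0.02 (exact permutation p = 0.7, 3 libraries against 3). Fragments of G6pdx and of Ikbkg, which overlaps it by 418 bases on the opposite strand, summed to a log2 fold change of -0.14.

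**Figure D1:**
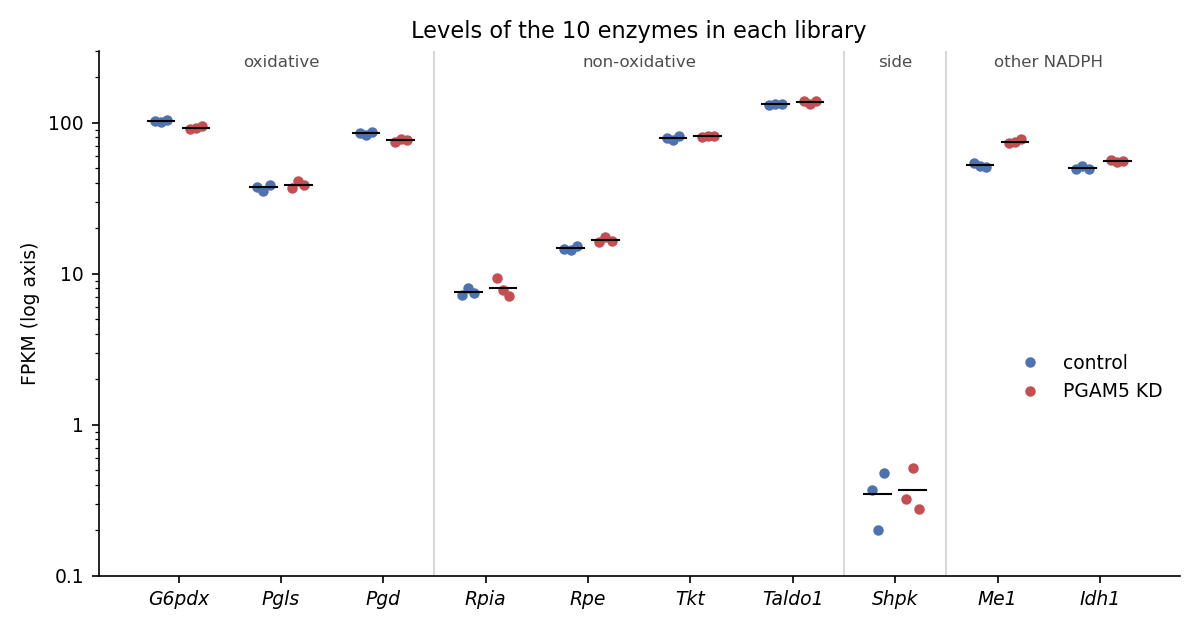
FPKM on a log axis of the 10 enzymes in the 3 control (blue) and 3 PGAM5 KD (red) libraries, with a black line at each group mean. The groups do not overlap for G6pdx, Pgd, Rpe, Me1 and Idh1, and Shpk lies below 1 FPKM in every library.

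Me1 (ENSMUSG00000032418; chromosome 9, 86581371 to 86695953, minus strand), cytosolic malic enzyme, showed the largest change of the 9 tested. It had 54.0, 51.8 and 50.9 FPKM in control and 73.1, 74.3 and 77.5 FPKM in PGAM5 KD libraries, from 3777 to 7273 fragments per library. The lowest PGAM5 KD library was well above the highest control library. The mean rose from 52.2 ± 1.62 to 74.96 ± 2.28 FPKM (SD, n = 3), which is 0.51 on the log2 scale (SE 0.04, limma adjusted p = 0.00017), which is above that of 95.5% of all genes tested. The call held in all 16 alternative fits, between 0.44 and 0.54. Idh1 (ENSMUSG00000025950; chromosome 1, 65158616 to 65186500, minus strand), cytosolic and peroxisomal isocitrate dehydrogenase, had 49.1, 51.4 and 49.6 FPKM in control and 56.9, 55.2 and 55.7 FPKM in PGAM5 KD libraries. These did not overlap either, and the log2 fold change was 0.16 (SE 0.03, limma adjusted p = 0.0130). The call for Idh1 was lost when libraries were scaled to TPM (0.08, limma adjusted p = 0.147) or quantile normalized (0.105, limma adjusted p = 0.0611), and held in the other 14 fits. Transcripts resembling Me1 (3 genes, at least 85% identity over at least 200 bases) left at least 99.7% of the summed fragments on Me1 itself, and no transcript of another gene resembled Idh1 or Pgd.

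Within a library, the proportions of these enzymes do not depend on the factor by which it is scaled. Of the FPKM summed over G6pdx, Pgd, Me1 and Idh1, G6pdx took 35.4%, 35.3% and 35.9% in control and 30.6%, 30.9% and 31.3% in PGAM5 KD libraries. The share of Pgd went from 29.3% ± 0.425 to 25.5% ± 0.426 (SD, n = 3). Me1 took 18.6%, 17.99% and 17.4% in control and 24.7%, 24.8% and 25.4% in PGAM5 KD libraries, while Idh1 went from 17.2% ± 0.536 to 18.6% ± 0.537 (SD, n = 3). The shares of both dehydrogenases of the pathway were smaller in every PGAM5 KD library, and that of Me1 was larger. Me1 and Idh1 together had 0.544 ± 0.0178 times the FPKM of G6pdx and Pgd in control and 0.773 ± 0.0127 times in PGAM5 KD libraries (SD, n = 3). The summed FPKM of all 4 genes ranged from 288.1 to 292.4 in the control group and from 295.7 to 305.1 in the PGAM5 KD group. These shares were computed after the values were seen and carry no test.

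**Figure D2:**
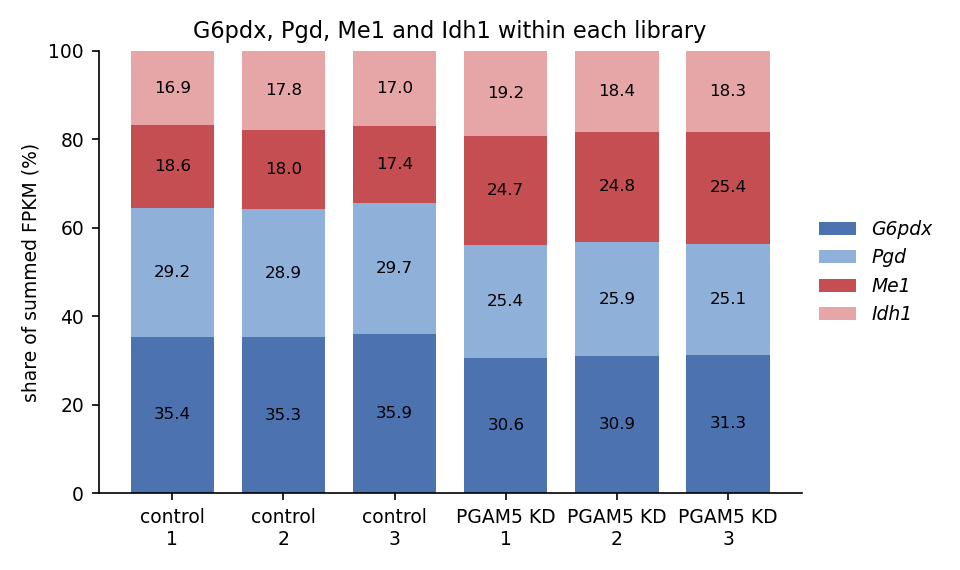
Share in percent of the summed FPKM of G6pdx, Pgd, Me1 and Idh1 in each library, as stacked bars from 0 to 100. Me1 takes from 17.4% to 18.6% in the control and from 24.7% to 25.4% in the PGAM5 KD libraries, and G6pdx and Pgd are smaller in every PGAM5 KD library.

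In the non-oxidative branch, Rpe (ENSMUSG00000026005; chromosome 1, 66700831 to 66719805), ribulose-phosphate 3-epimerase, had 14.6, 14.3 and 15.3 FPKM in control and 16.2, 17.6 and 16.4 FPKM in PGAM5 KD libraries. The libraries did not overlap, and the log2 fold change was 0.17 (SE 0.05, limma adjusted p = 0.0362). This call was the least stable of the 5: it held in 5 of 16 alternative fits and, of the fits that left out 1 library, only in that without PGAM5 KD replicate 1. The adjusted p from limma was 0.0916, 0.103 and 0.052 without control replicates 1, 2 and 3, and 0.106 and 0.0685 without PGAM5 KD replicates 2 and 3. Rpe also shares 558 exon bases with Kansl1l on the opposite strand, and fragments summed over both genes, 72.3% to 81.6% of them on Rpe, had a log2 fold change of 0.12. Rpia (ENSMUSG00000053604; chromosome 6, 70765720 to 70792232, minus strand), the isomerase that makes ribose 5-phosphate, had 7.23, 8.05 and 7.41 FPKM in control and 9.36, 7.76 and 7.13 FPKM in PGAM5 KD libraries. Its highest value was PGAM5 KD replicate 1 and its lowest PGAM5 KD replicate 3, so the groups overlapped, and the 95% interval of its log2 fold change, from -0.15 to 0.30, was the widest of the 9.

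Tkt and Taldo1 encode transketolase and transaldolase, which pass carbon units between sugar phosphates and return them to glycolysis. Tkt (ENSMUSG00000021957; chromosome 14, 30548359 to 30574720) had 79.3, 76.5 and 81.2 FPKM in control and 80.4, 82.2 and 81.4 FPKM in PGAM5 KD libraries. Taldo1 (ENSMUSG00000025503; chromosome 7, 141392199 to 141402968), the member with the highest level, had 131.8, 133.3 and 133.7 FPKM in control and 139.7, 132.8 and 139.2 FPKM in PGAM5 KD libraries. For both genes 1 or more libraries of the groups overlapped, with log2 fold changes of 0.04 for Tkt (95% interval -0.04 to 0.12, limma adjusted p = 0.386) and 0.05 for Taldo1 (95% interval -0.03 to 0.12, limma adjusted p = 0.306). The direction of both turned negative under TPM and quantile normalization, and that of Pgls under TPM. Shpk (ENSMUSG00000005951; chromosome 11, 73199460 to 73224511), which feeds sedoheptulose 7-phosphate into the branch, was below the filter of a mean FPKM of 1 and entered only the fit without that filter. It had 0.369, 0.199 and 0.480 FPKM in control and 0.320, 0.516 and 0.275 FPKM in PGAM5 KD libraries, or 12 to 28 fragments per library. The groups overlapped, and the fit without the filter gave a log2 fold change of 0.02 (95% interval -0.24 to 0.29, limma adjusted p = 0.909).

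**Figure D3:**
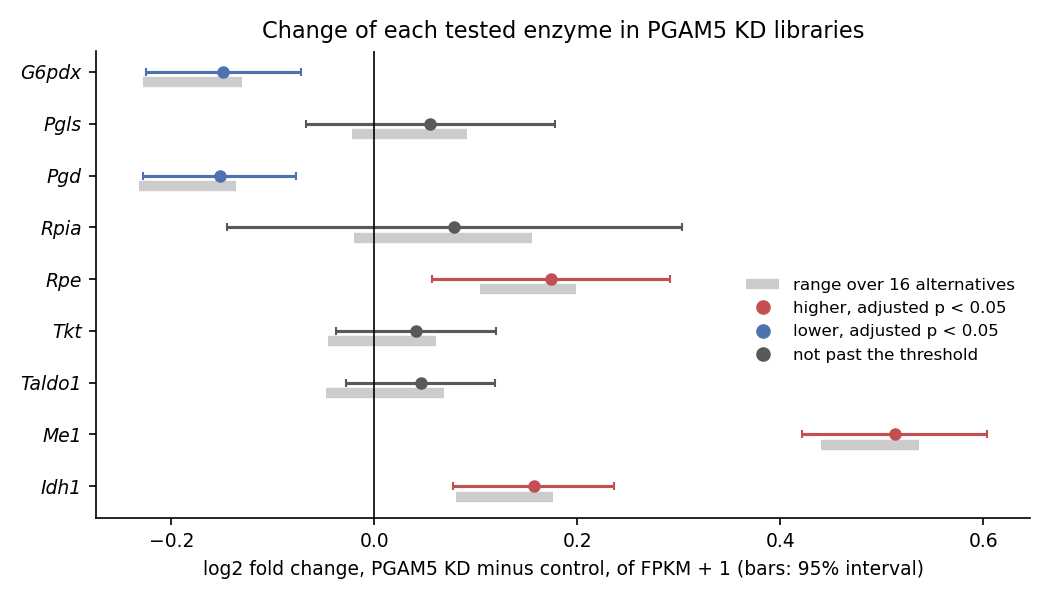
Log2 fold change of FPKM + 1, PGAM5 KD minus control, of the 9 tested enzymes, with 95% intervals from limma (3 libraries against 3) and, as grey bars, the range over 16 alternative fits. G6pdx and Pgd lie left of 0 and Me1, Idh1 and Rpe right of it over their whole ranges, while the ranges of Pgls, Rpia, Tkt and Taldo1 cross 0.

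The order of the levels shifted with these changes. FPKM scales by annotated exon length, so levels of genes with long rarely used exons are understated. In control libraries the order was Taldo1, G6pdx, Pgd, Tkt, Me1, Idh1, Pgls, Rpe, Rpia and Shpk, and among neighbours only Me1 and Idh1 overlapped between libraries. In PGAM5 KD libraries Tkt stood above Pgd in every library, at a mean of 81.3 against 76.4 FPKM, and Me1 reached the level of Pgd, with overlapping libraries at a mean of 74.96 FPKM.

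Ratios within each library were compared for 6 pairs, with an exact two-sided permutation test whose smallest p is 0.1 for 3 libraries against 3, so that no pair could pass a threshold of 0.05 (the smallest adjusted over the 6 pairs was 0.12). Me2 encodes the mitochondrial malic enzyme, and Me2 was itself higher (72.3 to 87.3 FPKM, log2 fold change 0.27, limma adjusted p = 0.00387). The log2 ratio of Me1 to Me2 was -0.39, -0.41 and -0.58 in control and -0.24, -0.26 and -0.15 in PGAM5 KD libraries, without overlap, a rise of 0.24 (exact permutation p = 0.1). Me1 thus gained on its mitochondrial counterpart in each PGAM5 KD library. Me3, the other mitochondrial form, was listed at 0 in every library, so its pair says nothing beyond Me1. Idh2, the mitochondrial isocitrate dehydrogenase, had 71.1 FPKM in both groups (log2 fold change 0.00, limma adjusted p = 0.994), and the log2 ratio of Idh1 to Idh2 was higher by 0.16 without overlap (exact permutation p = 0.1). H6pd, the endoplasmic reticulum enzyme that carries out the first steps of the pathway there, fell by 0.47 on the log2 scale (9.55 to 6.61 FPKM, limma adjusted p = 0.0120). G6pdx therefore rose relative to H6pd, by 0.32, although both were lower. The log2 ratio of G6pdx to Tkt was 0.37, 0.40 and 0.37 in control and 0.17, 0.17 and 0.23 in PGAM5 KD libraries, so the oxidative entry step was lower relative to transketolase in each of them (difference -0.19, exact permutation p = 0.1). The log2 ratio of Tkt to Taldo1 differed between the groups by less than its spread, with means of -0.743 ± 0.0433 in control and -0.748 ± 0.0544 in PGAM5 KD libraries (SD, n = 3).

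**Figure D4:**
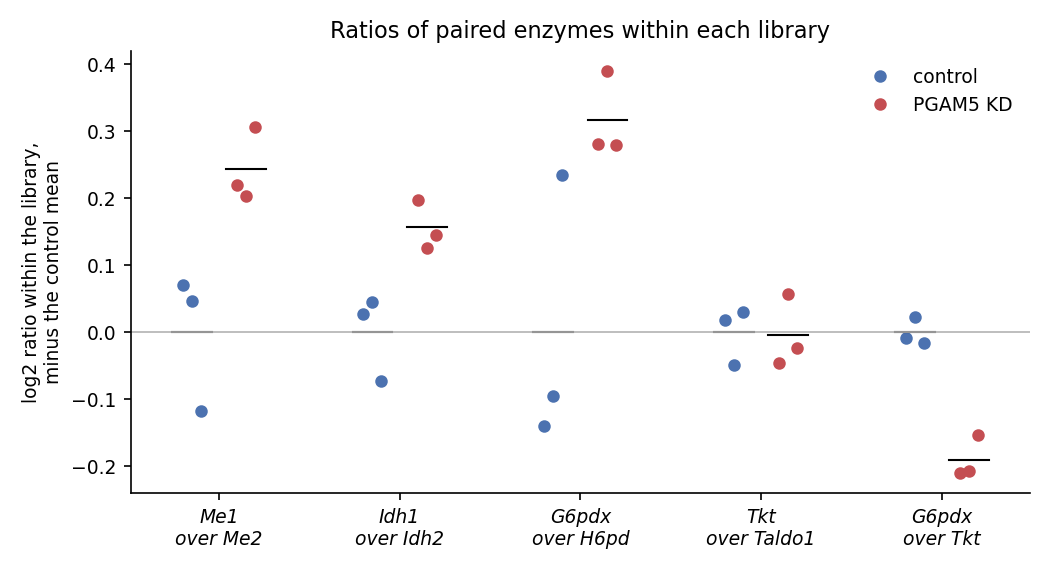
Log2 ratio of FPKM + 1 of paired enzymes within each library, minus the mean of the 3 control libraries, with control in blue, PGAM5 KD in red and black lines at the means. All PGAM5 KD libraries lie above the control libraries for Me1 over Me2, Idh1 over Idh2 and G6pdx over H6pd, and below them for G6pdx over Tkt, while the groups overlap for Tkt over Taldo1.

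Other genes that feed or draw on the same pools were taken from lists written by function. Of 13 related pentose phosphate and ribose genes, 10 were tested, of which Prps1, which makes the activated ribose of nucleotide synthesis, was higher (55.2 to 62.8 FPKM, log2 fold change 0.18) and H6pd lower. The other 8 did not pass, and Tktl2 was listed at 0 while Tktl1 and G6pd2, a retrogene copy of G6pdx, were below 1 FPKM in every library. Scaled to TPM or quantile normalized, the call for Prps1 was lost. Of 13 other NADPH and NADP sources, 9 were tested, 3 higher and 2 lower (2 higher and 3 lower under TPM). The higher genes were Me2 and the mitochondrial one-carbon enzymes Mthfd1l (0.30) and Mthfd2 (0.21). As background, Me2 and Mthfd2 work mainly with NAD, and Mthfd1l is a formyltetrahydrofolate synthetase of the same route that reduces no cofactor itself, so the higher genes of this list are not mainly NADPH-forming. The lower genes were the NAD kinase Nadk, which makes NADP (167.5 to 153.7 FPKM, -0.12), and the glutamate dehydrogenase Glud1 (-0.12). These lower calls were not stable: 0 genes of the list were lower without control replicate 1, 2 or 3, without PGAM5 KD replicate 2 or 3, or with no mean-variance trend, and 1 was lower without PGAM5 KD replicate 1, with the replicate block or with no filter. Nnt, the mitochondrial transhydrogenase, was at or below 0.124 FPKM in every library.

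Of 16 NADPH-using enzymes, 14 were tested, 3 higher and 7 lower, with a median log2 fold change of -0.18. The count of higher genes was 1 under TPM and without PGAM5 KD replicate 2, and 2 with no filter, with quantile normalization, and without control replicate 1 or 3 or PGAM5 KD replicate 1 or 3, while the count of lower genes stayed from 5 to 8 over the 16 alternative fits. The thioredoxin reductase Txnrd1 fell by 0.61 on the log2 scale (104.4 to 68.2 FPKM), the phagocyte oxidase subunit Cybb by 0.495 (102.1 to 72.2 FPKM), the fatty acid synthase Fasn by 0.48, and the cytochrome P450 reductase Por by 0.28. The xylulose reductase Dcxr was higher by 0.50 (4.76 to 7.09 FPKM), and Nos2, which uses NADPH to make nitric oxide and was named after its values were seen, was lower by a log2 fold change of -0.15. Of 13 NRF2 targets outside the 10 enzymes, 12 were tested, with 0 higher and 8 lower in limma and a median of -0.34. Txnrd1, Gsr and Nqo1 are also among the NADPH-using enzymes, so Txnrd1 is counted as lower in both lists. All 12 had a negative log2 fold change, so 0 were higher at an unadjusted p as well, and 0 were called higher in each of the 16 alternative fits, voom included. The cystine transporter gene Slc7a11 fell by 0.82 on the log2 scale, and the glutathione synthesis gene Gclc by 0.53, with smaller falls of Srxn1 (0.43) and Abcc1 (0.37). Nqo1, below the filter and not tested, had 1.06, 1.31 and 1.29 FPKM in control and 0.469, 0.248 and 0.026 FPKM in PGAM5 KD libraries. Nfe2l2, which encodes NRF2, was lower (39.7 to 26.6 FPKM, -0.56), as was its partner Mafg (-0.34), and Keap1 and Bach1 did not pass. G6pdx and Pgd were thus lower together with most of these targets and Me1 and Idh1 were not, and the part of NRF2 in this was not tested.

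Glycolysis shares glucose 6-phosphate, fructose 6-phosphate and glyceraldehyde 3-phosphate with the pathway. Of 11 genes at these steps, 9 were tested, 8 higher and 1 lower, with a median of 0.43. The count of higher genes was 8 in each of the 16 alternative fits. The lower call, that of the hexokinase Hk3 (-0.24), was lost without control replicate 1, 2 or 3, without PGAM5 KD replicate 1 or 3, with no mean-variance trend and with no filter. The genes that rose most were Tpi1 (0.65), Pfkl (0.62), Pfkp (0.61), Hk1 (0.50) and Pfkm (0.43). Among the 7 tested members of the pathway proper, log2 fold changes ran from -0.15 (Pgd) to 0.17 (Rpe) on the FPKM scale and from -0.23 (Pgd) to 0.10 (Rpe) under TPM. A difference between the lists was not tested.

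**Figure D5:**
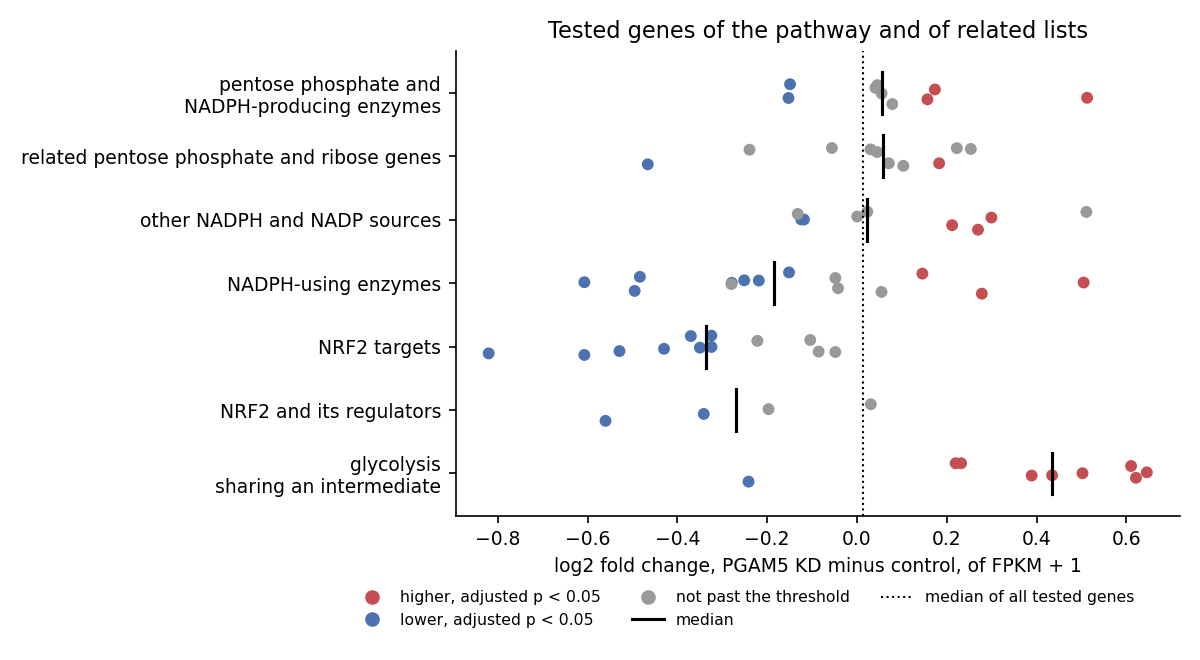
Log2 fold change of FPKM + 1, PGAM5 KD minus control, of each tested gene in the enzyme group and 6 related lists (Txnrd1 and Gsr stand in both the NADPH-using and the NRF2 target list), coloured by the call in limma, with list medians as black bars and the median of all genes tested (0.01) dotted. The enzymes spread to both sides of 0, 12 of 12 NRF2 targets lie left of it and 8 of 9 glycolysis genes right of it.

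The libraries of the groups did not overlap for 5 of the 9 tested enzymes, and did not overlap for 47.1% of all genes tested. The number that separated is therefore no result about the enzymes. They differed in direction and size. By absolute size, the change of Me1 was larger than that of 91.4% of all genes tested. The changes of G6pdx, Pgd, Idh1 and Rpe were near the middle by the same measure, larger than those of 48.6%, 49.5%, 50.6% and 54.9% of all genes tested.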

How the data were processed

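Poly(A) RNA from 3 control and 3 PGAM5 KD iBMDM samples treated with LPS was sequenced, and the authors deposited FPKM per Ensembl gene, 1 table per library. The submitters' processing notes name HISAT2 2.0.5, featureCounts 1.5.0-p3 and mm10, while the role of each, the gene annotation and whether strand was used in counting are not given in the sources used here. Genes were named with GENCODE M21 (GRCm38), which held 54495 of 54532 identifiers; where a symbol had more than 1 identifier, the one with the higher mean was used. FPKM times exon length fell on whole fragments within 0.01 for 96.8% to 97.1% of values under 1000 fragments, which gave the depth of each library.

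Genes whose FPKM averaged at least 1 over the 6 libraries entered a limma 3.58.1 fit of log2(FPKM + 1) in R 4.3.3 (mean-variance trend, two-sided, Benjamini-Hochberg over all 10540 genes). Voom on the recovered fragments was an alternative only, since the unit is FPKM. Resembling transcripts were found with blastn 2.17.0. Exact permutation tests used SciPy 1.17.1, and figures matplotlib 3.10.9. The fit was tested on simulated data. Named genes are the 10 enzymes, Pgam5, the paired, overlapping or resembling genes, and, from each list, up to 5 called genes with the greatest absolute change; Nqo1, Nnt, Keap1, Bach1, Tktl1, Tktl2, G6pd2, Aldh1l2, Mertk, Gsr, Nos2, Hk3 and A330041J22Rik fall outside this rule and were chosen after their values were seen. The enzymes and lists were chosen with earlier results of these data known. The 16 alternatives changed the pseudocount, filter, scaling, trend, weights or pairing, used voom, or left out 1 library. Sums with overlapping genes and shares of the 4 NADPH enzymes were added after seeing the data.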

Additional observations from a re-analysis of the deposited data

How the results depend on the processing

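G6pdx, Pgd and Me1 kept their direction and their call in all 16 alternative fits, and Idh1 and Rpe kept their direction. Under TPM 1 of the enzymes was higher and 2 lower, and their median log2 fold change was -0.022. Of all 10540 genes, 1088 were then higher and 2282 lower. Under quantile normalization 1 of the enzymes was higher and 2 lower, and the median was 0.013. Of all genes, 1436 were then higher and 1721 lower, so the number of lower enzymes is to be read against these counts. The log2 fold changes of Pgls, Tkt and Taldo1 turned to -0.022, -0.037 and -0.033 under TPM, and those of Tkt and Taldo1 to -0.046 and -0.048 under quantile normalization. TPM divides by the FPKM sum, which was higher in PGAM5 KD libraries, so it lowers these values by construction. Leaving out 1 library gave from -0.020 to 0.155 for Rpia, which was not past the threshold in any of these fits. The ratio of Tkt to Taldo1 then ran from -0.035 to 0.017. No ratio could pass a threshold with 1 library left out, since the smallest exact permutation p of any pair was then 0.2. Libraries with the same replicate number shared only the number (correlations of their deviations -0.02, 0.016 and -0.052), and the block was an alternative only. With the replicate block, 1440 genes were higher and 1212 lower, and among the enzymes the call for Rpe was lost (0.17, adjusted p = 0.083 from limma). The count of all genes past both thresholds was 139, and reached 261 with a pseudocount of 0.1, 233 with TPM and 279 with voom, and fell to 76 with a mean FPKM of at least 5. Shpk had at most 28 fragments in a library, which limits the precision of its values.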

Other observations

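An antisense gene at the Me1 locus, A330041J22Rik, chosen after its values were seen, had 0 fragments in each control library and 5, 5 and 4 fragments in PGAM5 KD replicates 1 to 3. It shares 30 exon bases with Me1, and whether these fragments come from Me1 was not tested. Aldh1l2, a mitochondrial one-carbon enzyme that makes NADPH, had 0.998, 0.931 and 1.43 FPKM in control and 2.67, 1.85 and 1.60 FPKM in PGAM5 KD libraries, without overlap and not past the threshold (log2 fold change 0.51, adjusted p = 0.0528 from limma).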
